A study of Caenorhabditis elegans with 30 samples.

Results

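The genes described here encode the antimicrobial peptides nlp-27, nlp-28, nlp-29, nlp-30, nlp-31, nlp-34, cnc-1, cnc-2, cnc-4 and cnc-6 of Caenorhabditis elegans, 10 of the 46739 genes in the table of counts. They were taken by name, as peptide genes of the nlp (neuropeptide-like protein) and cnc (caenacin) families with expression in the epidermis. The study asked how gene expression differs in worms that withdraw from prolonged ethanol, and which of these differences depend on the chromatin remodelling complex SWI/SNF. RNA with a polyA tail was sequenced from whole hermaphrodites on their first day of adulthood, with 5 libraries in each of 6 groups and about 100 pooled worms per library. Wild-type worms were of the Bristol strain N2, placed from the L4 larval stage on plates with ethanol at 400 mM or with none (0 mM) for 18 h, and were harvested immediately. Further wild-type worms were exposed in the same way and spent 6 h on plates without ethanol before harvest. swsn-9(ok1354) mutants, all of the strain RA503, were exposed to 400 mM or 0 mM and harvested immediately. SWSN-9 is a subunit of the SWI/SNF form called PBAF. Per the study's methods, each replicate had its own day, and its exposed and control plates ran side by side. It is not stated that mutants and wild type shared these days, so genotype and collection day cannot be told apart. Nor is it stated for worms harvested immediately and at 6 h. The latter were also older and had been moved to other plates, so time, age, transfer and day cannot be told apart.

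Short peptides rich in glycine and aromatic residues are part of the innate immunity of the worm epidermis, the skin layer that secretes the cuticle. Infection by the fungus Drechmeria coniospora and wounding are known to raise nlp-29 and its neighbours through a p38 MAP kinase cascade (TIR-1, NSY-1, SEK-1, PMK-1) that ends at the STAT-like factor STA-2, and osmotic stress raises nlp-29 too. The caenacin cnc-2 is known to respond to infection through the TGF-beta ligand DBL-1 instead. All of this is background and was not measured here.

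In assembly WBcel235, 6 of the genes form a cluster on chromosome V that spans 10.9 kb, from 3978825 to 3989770. Their order is nlp-34, nlp-31, nlp-30, nlp-29, nlp-28 and nlp-27, with nlp-34 on the minus strand and the other genes on the plus strand. A further cluster on chromosome V, from 1444044 to 1450183, holds cnc-1, cnc-4 and cnc-2 in 6.1 kb, with cnc-5 and cnc-3 in between. cnc-6 lies alone on chromosome III, from 1763522 to 1764902. Every one of the 10 genes has 2 exons, and none overlaps another annotated gene. The gene next to nlp-34, str-83, had no count in any library. The authors kept reads with 1 alignment only, so stretches that near-identical paralogs share would be undercounted by an unknown amount.

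The libraries held 11812827 to 23505210 counts on genes (median 16480465). Levels are given as CPM, counts scaled to a common library total by the TMM method, in the order of replicates 1 to 5. In the mutants swsn-9 itself had 52.3 to 65.5 CPM, against 181 to 215 CPM in wild type, so transcripts of the deleted gene were reduced but not absent (log2 fold change at 0 mM −1.70, edgeR adjusted p = 4.6e-22). Of 10 epidermal marker genes chosen for this report, including col-19 and elt-3, only rol-6 was without counts in a group, unexposed wild type at 6 h. In whole animals, fewer epidermal cells and less RNA per cell cannot be told apart.

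The genes differed widely in level. Per kilobase of exon, the mean over 30 libraries was 85.8 CPM for nlp-27, 34.2 for nlp-28, 25.4 for nlp-29 and 12.1 for nlp-31. Below these came cnc-2 with 7.48, cnc-4 with 6.36, nlp-34 with 5.71 and nlp-30 with 1.25 CPM per kilobase. cnc-6 had 26 counts in all, spread over 12 libraries with at most 6 in any, and cnc-1 had 3 counts in 2 libraries. These last genes are given no fold change. cnc-1 was too low to be tested in either fit and cnc-6 in the fit with mutants, which leaves 9 genes tested in wild type and 8 in comparisons that involve mutants.

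A pair of libraries stood apart. Among unexposed wild-type worms harvested immediately, replicates 4 and 5 were the highest for 7 of the 8 genes with more than trace counts. For nlp-29 the 5 libraries had 2.17, 2.46, 1.26, 12.85 and 10.06 CPM, and for cnc-2 they had 0.09, 0.56, 0.78, 7.56 and 5.47 CPM. nlp-34 had 0, 3, 5, 75 and 62 counts in them, and cnc-4 had 0.43, 0.35, 0.71, 5.42 and 5.23 CPM. The exception was nlp-27, at 21.76, 29.87, 21.27, 36.16 and 29.52 CPM. The summed level of the epidermal markers, 1651, 1797, 1315, 1810 and 1506 CPM in the same order, did not separate this pair from the other libraries. Their depths of 16456780 and 13601536 counts lay within the range of the series. In exposed wild type harvested immediately, replicates 4 and 5 were both the highest for 0 of the 8 genes. Pairs that led for several genes also occurred elsewhere, as replicates 2 and 3 of exposed mutants did for 6 of the 8. The main results that use unexposed wild type harvested immediately are given with all libraries and again without its replicates 4 and 5. This alternative was chosen after the levels of these same genes were seen, so its values and calls are a description and no independent test.

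Libraries also differed in ribosomal RNA. The gene rrn-3.1 took 17.6% of all counts in exposed wild type at 6 h replicate 1, 5.74% in unexposed wild type at 6 h replicate 1 and 6.26% in unexposed wild type harvested immediately replicate 5, against 0.242 to 1.34% in the other 27 libraries. A chi-square statistic per gene, which measures how far 2 libraries of a group differ, was 240 to 298 between the first of these and the rest of its group, and 6.62 to 16.4 among that rest. With the 20 rrn genes taken out it was 11.6 to 18.8 for this library and 6.33 to 15.2 among the rest of its group. Results without each of these libraries are given where a call changed.

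**Figure D1:**
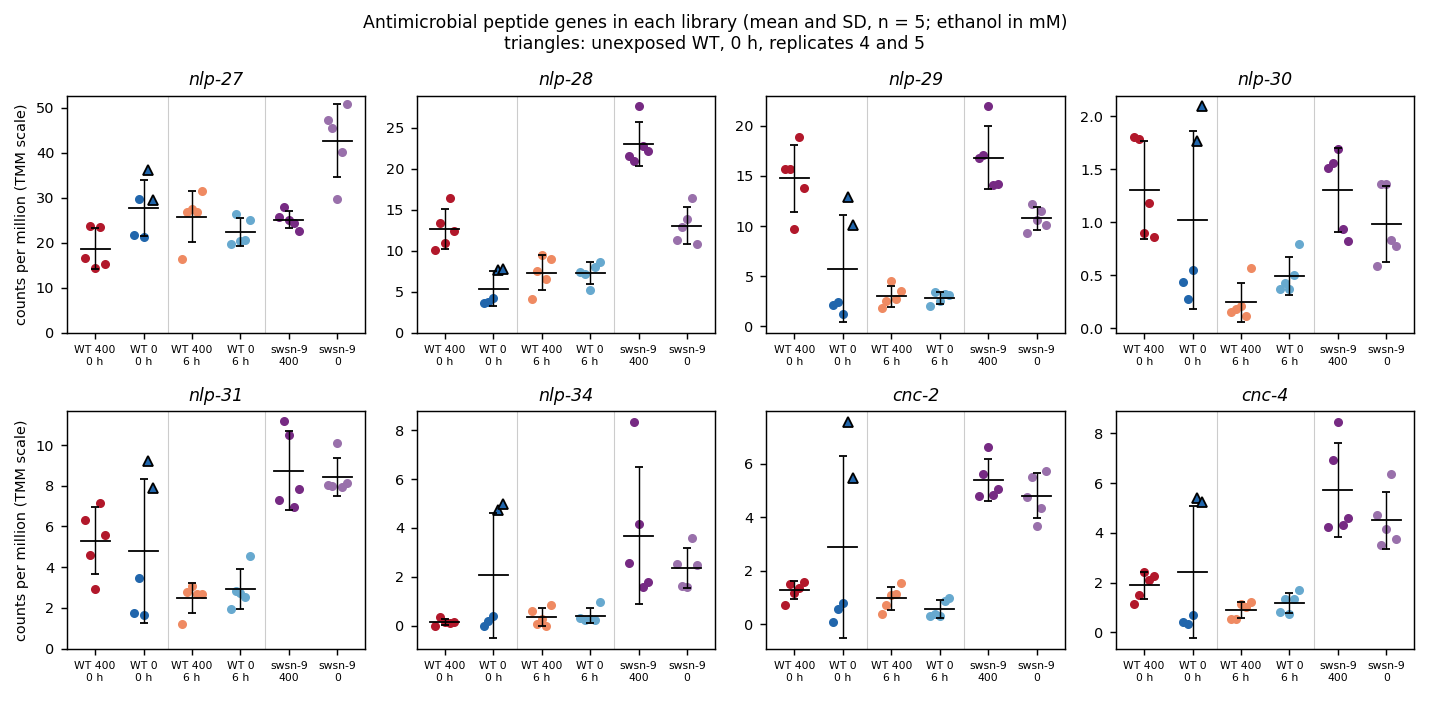
Level of 8 antimicrobial peptide genes in each library (y axis, CPM on the TMM scale; points are libraries, bars the mean and SD of 5), in 6 groups by genotype, ethanol in mM and time. Triangles mark unexposed wild-type replicates 4 and 5, which reach 12.85 and 10.06 CPM for nlp-29 where the other 3 libraries of their group have at most 2.46 CPM, and all mutant libraries have 3.66 to 6.65 CPM of cnc-2.

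Immediately after exposure, wild-type worms had more nlp-28 and nlp-29 and less nlp-27 and nlp-34 than unexposed worms. These were 4 of the 9 genes tested, where 12.8% of all 16210 genes tested were called at an adjusted p under 0.05 (6.81% higher and 5.94% lower). nlp-28 had 10.15, 13.44, 10.99, 16.41 and 12.43 CPM in exposed worms, against 3.64, 3.72, 4.24, 7.62 and 7.72 CPM in unexposed worms. Every exposed library lay above every unexposed library, replicates 4 and 5 included, as was the case for 4.69% of all genes. The log2 fold change of nlp-28 was 1.24 ± 0.23 (SE), or 2.36-fold (edgeR adjusted p = 0.00054).

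nlp-29, the peptide gene used most often as a reporter of the epidermal response to infection and wounding, had 15.63, 15.66, 9.70, 18.89 and 13.80 CPM in exposed worms. Unexposed worms had the levels given above, from 1.26 to 12.85 CPM. The groups overlapped, since exposed replicate 3 fell below both of the high unexposed libraries. With all libraries the log2 fold change was 1.34 ± 0.39 (SE; edgeR adjusted p = 0.0256). This call was lost when unexposed replicate 1, 2 or 3 or exposed replicate 1 or 4 was left out (adjusted p of 0.05 to 0.0726), and in a fit of the compared groups alone (adjusted p = 0.0788). Without unexposed replicates 4 and 5 the log2 fold change of nlp-29 was 2.91 ± 0.29 (SE; edgeR adjusted p = 7.11e-07).

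nlp-27, the most abundant of these transcripts, changed the other way. It had 16.62, 23.67, 14.35, 23.43 and 15.27 CPM in exposed worms, against 21.76 to 36.16 CPM in unexposed worms, with overlap between the groups. The log2 fold change of −0.57 ± 0.17 (SE; edgeR adjusted p = 0.0269) was not called without unexposed replicate 2, 4 or 5 or exposed replicate 1, 3 or 5 (adjusted p of 0.0544 to 0.0908). It was −0.38 without both unexposed replicates 4 and 5 (adjusted p = 0.223).

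nlp-34 had 0, 5, 3, 2 and 3 counts in exposed worms, against 0, 3, 5, 75 and 62 counts in unexposed worms. Its log2 fold change of −3.61 ± 0.96 (SE; edgeR adjusted p = 0.0132) rested on the pair of high libraries. It was −3.03 without replicate 4 (adjusted p = 0.051) and −0.32 without replicates 4 and 5 (95% interval −2.34 to 1.70, adjusted p = 0.902). Over the 9 genes tested, trace-level cnc-6 included, the median log2 fold change was −0.35, and over all genes 0.01.

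Without unexposed replicates 4 and 5, 5 of the 8 genes tested were called higher and none lower, where 6% of 16189 genes were called higher and 4.87% lower. These were nlp-29, cnc-4 (log2 fold change 1.94 ± 0.41, SE), nlp-28 (1.72 ± 0.23, SE), nlp-30 (1.61 ± 0.47, SE) and nlp-31 (1.21 ± 0.34, SE). Their edgeR adjusted p-values lay between 7.11e-07 and 0.0287. The pair was left out for its high levels of most of these genes, so neither these values nor the share of all genes serves as a test. With all libraries cnc-4 had −0.35, so its direction turned with this choice. cnc-4 had 1.15, 1.50, 2.41, 2.11 and 2.28 CPM in exposed worms, between the 3 low and the 2 high unexposed libraries. cnc-2 lay in the same gap except in exposed replicate 1, with 0.74, 1.50, 1.18, 1.37 and 1.57 CPM in exposed worms. Its log2 fold change was −1.18 with all libraries (edgeR adjusted p = 0.235) and 1.39 without the pair (adjusted p = 0.0979). The median of the 8 genes without these replicates was 1.50 on the log2 scale, against 0.01 for all genes. cnc-6 is not among the 8, so this median and the one with all libraries are over different sets of genes.

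**Figure D2:**
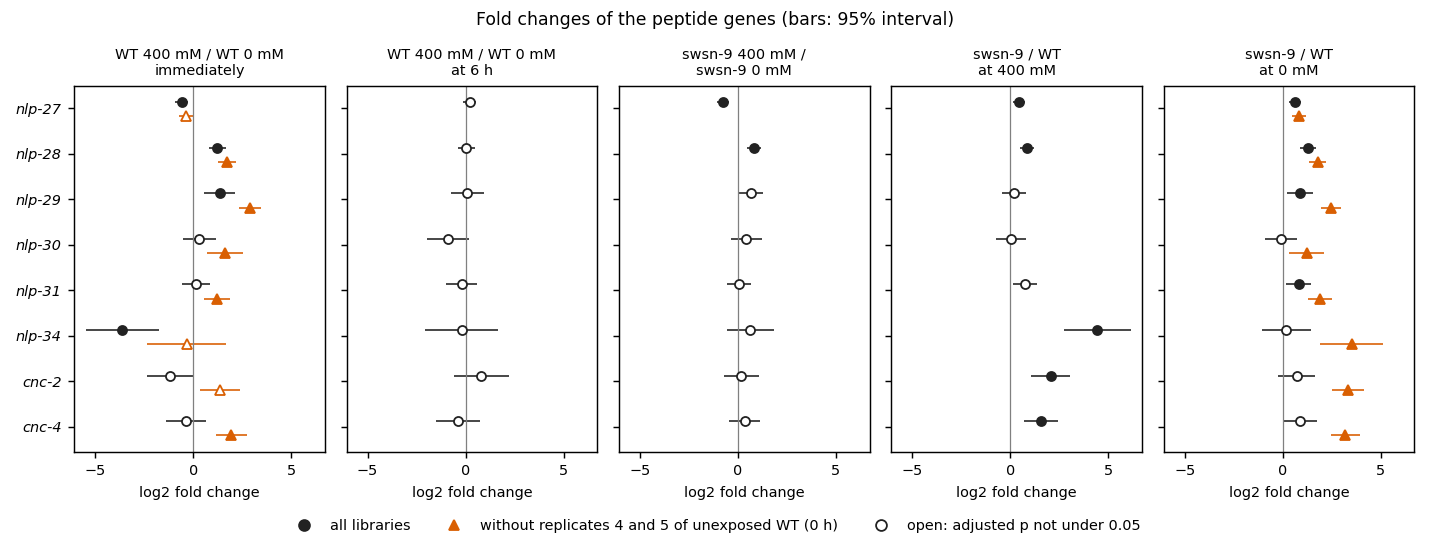
Log2 fold changes of 8 peptide genes in 5 comparisons (x axis; bars are approximate 95% intervals, taken from the SE under a normal distribution). Circles use all libraries, and triangles leave out unexposed wild-type replicates 4 and 5. Triangles are drawn only where that group is compared, in wild type immediately after exposure and between genotypes at 0 mM. Open symbols have an adjusted p that is not under 0.05. In wild type immediately after exposure nlp-29 is at 1.34 or 2.91 and nlp-34 at −3.61 or −0.32.

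The epidermal marker sum was 1406 to 2096 CPM in exposed worms, against 1315 to 1810 CPM in unexposed worms. Of 9 markers tested 1 was called, beside 12.8% of all genes. This was elt-1, which was lower (−0.49, and −0.57 without unexposed replicates 4 and 5). Its part in these differences was not tested.

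Within the cluster, nlp-29 rose relative to nlp-27, and so did nlp-28. nlp-28 averaged 12.7 CPM in exposed and 5.39 CPM in unexposed wild type, and nlp-27 averaged 18.7 and 27.7 CPM. nlp-29 and nlp-27 were already called in opposite directions, so their ratio is a description and no further test. Within each library, the ratio of nlp-29 to nlp-27 per kilobase of exon does not depend on library depth or scaling. It was 0.59 to 0.84 in exposed wild type (median 0.72) and 0.0527 to 0.317 in unexposed wild type (median 0.0889). The ranges did not overlap, and replicates 4 and 5 were the highest of the unexposed group. nlp-27 made up 29.4 to 37.8% of the summed CPM of the 10 genes in exposed worms, against 40.2 to 72.9% in unexposed worms. This sum includes the cnc genes, which lie outside the cluster.

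**Figure D3:**
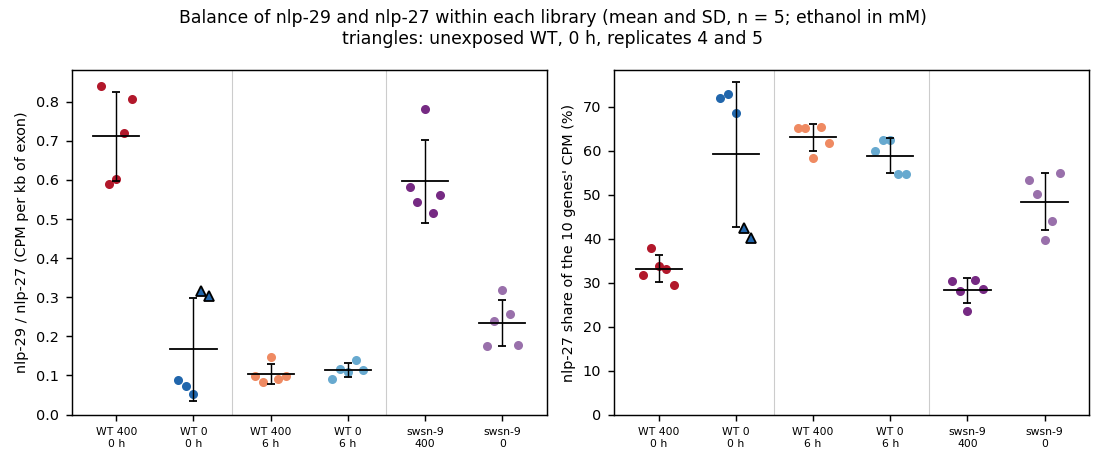
Ratio of nlp-29 to nlp-27 per kilobase of exon (left, y axis) and share of nlp-27 in the summed CPM of the 10 genes in percent (right, y axis), per library with the mean and SD of 5. The ratio lies between 0.59 and 0.84 in exposed wild type harvested immediately and does not exceed 0.317 in any other wild-type library.

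At 6 h postexposure, edgeR's quasi-likelihood test called no member between exposed and unexposed wild-type worms. This was 0 of 9 tested, where 3.94% of all genes were called. 0 of the 9 had an unadjusted p under 0.05, and DESeq2 called 0 as well. nlp-29 had 1.81, 2.49, 4.52, 2.74 and 3.50 CPM in exposed worms, against 1.99, 3.42, 2.51, 3.22 and 3.16 CPM in unexposed worms. nlp-28 had 4.08, 7.59, 9.45, 6.57 and 8.97 CPM in exposed worms, against 7.42, 7.15, 5.17, 8.08 and 8.63 CPM in unexposed worms. The groups overlapped for both genes. The 95% interval of the log2 fold change was −0.77 to 0.96 for nlp-29 and −0.41 to 0.45 for nlp-28, so the difference in nlp-28 seen immediately after exposure, 1.24, lay outside its interval at 6 h. Some intervals were wider, as for nlp-30 (−1.99 to 0.18), cnc-2 (−0.58 to 2.20) and nlp-34 (−2.09 to 1.68), so differences in these genes are not excluded. The count of members called stayed at 0 without replicate 1 of either group, the libraries with the most rrn-3.1.

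Whether the effect of ethanol differed between times was tested as an interaction. It was called for nlp-28 alone of the 9 genes tested (log2 difference −1.21 ± 0.32, SE; edgeR adjusted p = 0.0224), where 5.28% of all genes were called. nlp-27 had the other sign, with an interaction of 0.78 ± 0.24 (SE) that was not called (adjusted p = 0.0551) but was with unexposed replicate 1 or 3, exposed replicate 2 or 4 or exposed 6 h replicate 1 left out (0.013 to 0.041). It was also called by DESeq2 (adjusted p = 0.0212), and by edgeR with no filter on low counts (0.0373) and with all 30 libraries in the fit (0.0334). With a block for replicate number, edgeR called nlp-27 (0.77, adjusted p = 0.000825) and nlp-29 (−1.53, adjusted p = 0.0366) beside nlp-28. Without unexposed replicates 4 and 5 immediately after exposure, the interaction was called lower for 4 of the 8 genes tested, where 2.1% of genes were. These were nlp-29 (−2.81 ± 0.37, SE), nlp-30 (−2.51 ± 0.64, SE), cnc-4 (−2.32 ± 0.51, SE) and nlp-28 (−1.70 ± 0.29, SE). Here too the libraries were left out for their levels of these same genes, so the calls are a description.

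Among worms exposed to 400 mM, 4 genes were lower at 6 h than immediately after exposure and 1 was higher, of 9 tested. The share called over all genes was 25% (11.3% higher and 13.7% lower). Only exposed libraries are contrasted here, although the unexposed libraries of the same fit enter the estimate of the spread. nlp-29 had 1.81 to 4.52 CPM at 6 h, against 9.70 to 18.89 CPM immediately (log2 fold change −2.26 ± 0.41, SE; edgeR adjusted p = 0.00027). nlp-30 had 0.15, 0.18, 0.21, 0.11 and 0.57 CPM at 6 h, against 1.80, 1.79, 0.90, 1.18 and 0.86 CPM immediately (−2.27 ± 0.50, SE; adjusted p = 0.0018). nlp-28 fell by 0.77 on the log2 scale (SE 0.22, adjusted p = 0.0103). For these 3 genes all libraries at 6 h lay below all libraries taken immediately, as they did for 9.65% of all genes. Removal from ethanol, age, plate transfer and collection day cannot be told apart in this comparison.

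nlp-31 was also lower at 6 h (−1.07 ± 0.38, SE; edgeR adjusted p = 0.0417) and nlp-27 was higher (0.49 ± 0.17, SE; adjusted p = 0.0362), and both overlapped between times. The call of nlp-31 was lost without any of 8 of the 10 libraries (adjusted p of 0.0507 to 0.104; kept without replicate 3 of either group). That of nlp-27 was lost without any of 7 of them (0.0664 to 0.118; kept without immediate replicates 2 and 4 and 6 h replicate 1), and in a fit of these groups alone (0.0637). cnc-4 had −1.06 (adjusted p = 0.174, and 0.017 in a fit of these groups alone). Sperm marker genes differed between the same groups, with a summed level of 0.243 to 1.30 CPM at 6 h against 13.5 to 55.7 CPM immediately, and the epidermal marker sum was 1282 to 1722 CPM against 1406 to 2096 CPM. Their part in these differences was not tested. Without 6 h replicate 1, the library with the most rrn-3.1, nlp-29 had −2.14 (edgeR adjusted p = 0.00117), nlp-30 −2.16 (0.00577), nlp-28 −0.64 (0.0281) and nlp-27 0.60 (0.00731), while nlp-31 was not called (−0.91, 0.1).

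In unexposed worms, cnc-2 was lower at 6 h than immediately (log2 fold change −2.34 ± 0.67, SE; edgeR adjusted p = 0.0176), the only member called of 9 tested, with 19.1% of all genes called. It had 0.31, 0.37, 0.30, 0.88 and 0.99 CPM at 6 h, below both high libraries of the immediate group and near its other 3. Without replicate 4 or 5 the call was lost (adjusted p = 0.121 and 0.0532), and without both the value was 0.23 (adjusted p = 0.856). Then only nlp-28 was called, as higher at 6 h (0.92 ± 0.23, SE; adjusted p = 0.0197), with 7.59% of genes called. nlp-34 was not called with all libraries (−2.29, adjusted p = 0.0582), and leaving out unexposed immediate replicate 1, 2 or 3 or 6 h replicate 5 gave adjusted p-values of 0.0229 to 0.0361. nlp-29 (−1.01, adjusted p = 0.103) was called without unexposed immediate replicate 3 (−1.27, adjusted p = 0.0212). Without replicates 4 and 5 both had the other sign, nlp-34 with 1.00 (adjusted p = 0.579) and nlp-29 with 0.55 (adjusted p = 0.28).

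**Figure D4:**
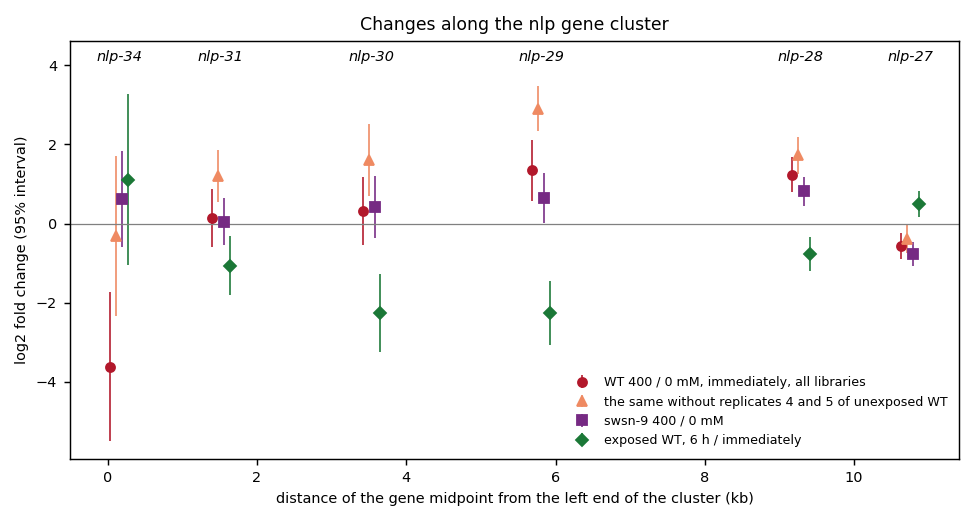
Log2 fold change (y axis, with approximate 95% interval) of the 6 nlp genes against the distance of each gene's midpoint from the left end of their cluster on chromosome V in kb (x axis; symbols are shifted slightly sideways). nlp-29 and nlp-30 in the middle have the lowest values at 6 h against immediately in exposed wild type, −2.26 and −2.27, and nlp-27 at the right end has the opposite sign to nlp-28 beside it in the comparisons shown.

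In swsn-9 mutants ethanol was followed by more nlp-28 and less nlp-27, the same signs as in wild type. These were 2 of the 8 genes tested, with 24.3% of all 16934 genes called. nlp-28 had 21.55, 20.93, 27.72, 22.74 and 22.18 CPM in exposed mutants, against 11.35, 12.90, 13.84, 16.46 and 10.87 CPM in unexposed mutants (log2 fold change 0.82 ± 0.18, SE; edgeR adjusted p = 0.0014). nlp-27 had 25.77, 28.04, 25.07, 24.41 and 22.62 CPM in exposed mutants, against 47.29, 45.47, 29.83, 40.16 and 50.91 CPM in unexposed mutants (−0.76 ± 0.16, SE; adjusted p = 0.00054). The groups did not overlap for either gene, as for 16.9% of all genes, and both calls stood when any library was left out.

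nlp-29 had 16.78, 17.05, 21.91, 14.12 and 14.22 CPM in exposed mutants, against 9.35, 12.22, 10.61, 11.55 and 10.09 CPM in unexposed mutants. These groups did not overlap either, yet the log2 fold change of 0.64 ± 0.32 (SE) was not called in the fit of 30 libraries, which share 1 estimate of the spread (edgeR adjusted p = 0.143). In a fit of the mutant libraries alone it was 0.68 (adjusted p = 0.00134). cnc-2 was nearly level, with 4.81, 5.61, 6.65, 4.82 and 5.06 CPM in exposed mutants, against 4.76, 5.50, 3.66, 4.36 and 5.72 CPM in unexposed mutants (log2 fold change 0.16, 95% interval −0.72 to 1.05). The ratio of nlp-29 to nlp-27 per kilobase was 0.517 to 0.78 in exposed mutants, against 0.177 to 0.318 in unexposed mutants, again without overlap. The median log2 fold change of the 8 genes was 0.38, and of all genes −0.01.

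At 0 mM, mutants had higher levels than wild type of nlp-27, nlp-28, nlp-29 and nlp-31, 4 of the 8 genes tested, and none was lower, where 23.2% of all genes were called higher and 22.3% lower. nlp-28 had 10.87 to 16.46 CPM in mutants, against 3.64 to 7.72 CPM in wild type, without overlap, as for 15.2% of all genes (log2 fold change 1.27 ± 0.20, SE; edgeR adjusted p = 7.1e-06). nlp-27 had 29.83 to 50.91 CPM in mutants, against 21.27 to 36.16 CPM in wild type (0.62 ± 0.16, SE; adjusted p = 0.0018). nlp-31 had 8.06, 8.01, 10.11, 7.95 and 8.11 CPM in mutants, a narrow range, against 1.73, 3.44, 1.65, 9.20 and 7.88 CPM in wild type (0.80 ± 0.32, SE; adjusted p = 0.0392). For nlp-29 the log2 fold change was 0.88 ± 0.34 (SE; adjusted p = 0.0366).

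The calls of nlp-29 and nlp-31 were lost without wild-type replicate 1, 2 or 3 (adjusted p of 0.0933 to 0.127), and in a fit of these groups alone (0.128 and 0.0911). They were also lost without mutant replicate 4 (0.0626 and 0.0515), that of nlp-29 without mutant replicate 2 (0.0544) and that of nlp-31 without mutant replicate 3 (0.0612). Without wild-type replicates 4 and 5 all 8 genes tested were higher in mutants, where 22.3% of 16948 genes were called higher. That pair was left out for its high levels of most of these genes, so the share of all genes is no even yardstick. The log2 fold changes were then 3.51 for nlp-34, 3.30 for cnc-2, 3.19 for cnc-4, 2.47 for nlp-29, 1.89 for nlp-31, 1.78 for nlp-28, 1.22 for nlp-30 and 0.84 for nlp-27 (edgeR adjusted p-values of 3.06e-08 to 0.0322). With replicate 4 alone left out, cnc-4 and cnc-2 were called (1.43 and 1.48, adjusted p = 0.0115 and 0.0122), and with replicate 5 alone cnc-4 was (1.32, adjusted p = 0.0201). nlp-30 had −0.09 with all libraries, so its direction turned. The median of the 8 genes was 0.75 with all libraries and 2.18 without replicates 4 and 5, against 0.06 and 0.13 for all genes.

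The comparison at 400 mM contrasts exposed libraries only, although the unexposed libraries of the same fit enter the estimate of the spread. Here 5 of the 8 genes tested were higher in mutants and none lower, where 26.8% of all genes were called higher and 25.6% lower. nlp-34 had 2.58, 8.33, 4.17, 1.57 and 1.77 CPM in mutants, against 0, 0.36, 0.17, 0.12 and 0.15 CPM in wild type (log2 fold change 4.44 ± 0.86, SE; edgeR adjusted p = 7.7e-05). cnc-2 had 4.81 to 6.65 CPM in mutants, against 0.74 to 1.57 CPM in wild type (2.06 ± 0.50, SE; adjusted p = 0.001). cnc-4 had 4.22, 6.94, 8.45, 4.33 and 4.61 CPM in mutants, against 1.15 to 2.41 CPM in wild type (1.57 ± 0.44, SE; adjusted p = 0.0035). nlp-28 was 1.81-fold higher in mutants (log2 fold change 0.86 ± 0.18, SE; adjusted p = 0.0003). For these 4 genes every mutant library lay above every wild-type library, as it did for 17.2% of all genes.

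nlp-27, with 0.44 ± 0.16 (SE; edgeR adjusted p = 0.025), overlapped between genotypes at 400 mM. Its call was lost without wild-type replicate 1, 3 or 5 or mutant replicate 1 or 2 (adjusted p of 0.0521 to 0.0872). nlp-31 was not called (0.72, adjusted p = 0.052) but was called without replicate 4 of either genotype (0.0355 and 0.0473) and under 5 other settings of the fit. nlp-29 and nlp-30, which had the largest differences between times in exposed worms among these genes, had log2 fold changes of 0.19 (95% interval −0.43 to 0.81) and 0.02 (−0.74 to 0.79) between genotypes. The summed CPM of the 10 genes was 79.1 to 106 in exposed mutants, against 42.6 to 70.7 in exposed wild type. The median of the 8 genes was 0.79, against 0.14 for all genes.

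The interaction of ethanol with genotype was called for 1 of the 8 genes tested, where 4.15% of all genes were called. This was nlp-34, at 4.25 ± 1.10 (SE; edgeR adjusted p = 0.0205), and it was not called without wild-type replicate 4 (3.66, adjusted p = 0.0665) or replicate 5 (3.68, adjusted p = 0.0597). Without both it was 0.96 (adjusted p = 0.794), and nlp-29 was called instead at −2.24 ± 0.32 (SE; adjusted p = 8.83e-05), with 3.27% of genes called. With all libraries nlp-29 was not called (−0.68, adjusted p = 0.49), so its interaction rests on leaving out that pair. Unexposed mutants had 9.35 to 12.22 CPM of nlp-29, against 1.26 to 2.46 CPM in the 3 remaining unexposed wild-type libraries and 12.85 and 10.06 CPM in that pair.

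Markers of tissues and of cuticle synthesis differed between the genotypes too, and their part in the peptide differences was not tested. The epidermal marker sum was 1585 to 2147 CPM in mutants at 0 mM, against 1315 to 1810 CPM in wild type. Of these 10 markers 5 were called higher, beside 23.2% of all genes. At 400 mM the sum was 1709 to 1981 CPM in mutants, against 1406 to 2096 CPM in wild type. There 5 markers were called higher and 2 lower, beside 26.8% and 25.6% of all genes. All 5 neuronal markers tested were higher in mutants at 0 mM (median log2 fold change 0.54) and all 5 germline markers were lower (median −0.39). Over all genes 23.2% were called higher and 22.3% lower there. The intestinal marker sum was 1930 to 2213 CPM in mutants, against 1806 to 2622 CPM in wild type, at 0 mM. At 400 mM it was 2840 to 3408 CPM, against 1902 to 2399 CPM. The muscle marker sum was 2630 to 3630 CPM in mutants, against 2007 to 2929 CPM in wild type, at 0 mM. At 400 mM it was 2593 to 3331 CPM, against 1865 to 3271 CPM. In a list of 12 cuticle furrow collagens and other genes whose loss is known to raise nlp-29, 11 were higher in mutants at 0 mM and 8 at 400 mM, beside 23.2% and 26.8% of all genes. The count at 0 mM was 11 without wild-type replicates 4 and 5 too. Furrow collagen genes are transcribed ahead of each larval moult. dpy-10 had 30.2 ± 8.2 CPM in mutants at 0 mM, against 5.15 ± 0.38 CPM in wild type (SD, n = 5 each). dpy-7 had 14.7 ± 3.7 CPM in mutants, against 0.218 ± 0.12 CPM in wild type, and dpy-2 had 14.5 ± 3.8 CPM against 0.132 ± 0.14 CPM. dpy-3 had 140 to 281 counts in mutant libraries at 0 mM, against 0 to 2 counts in wild type. In mutants, ethanol was followed by lower levels of dpy-10, osr-1, osm-8 and dpy-7 (log2 fold changes of −1.06, −1.71, −2.86 and −1.34) and of 2 more of these genes, with 1 higher. Over all genes 24.3% were called there in either direction. In wild type osm-7 and osm-11 were higher immediately after exposure (0.55 and 0.47), where 6.81% of all genes were, and dpy-10 was lower at 6 h (−0.53), with no other gene of the list called. Without unexposed replicates 4 and 5 the call of osm-11 was lost (adjusted p = 0.073) and that of osm-7 stood (0.71, adjusted p = 0.0248).

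Genes upstream of the peptides were read from the same fits. Of 15 genes around the p38 cascade, wild-type ethanol exposure was followed by higher nipi-3 (log2 fold change 0.48, edgeR adjusted p = 0.00083) and cebp-1 (0.91, adjusted p = 0.0021) and lower rack-1 (−0.16, adjusted p = 0.02), with a list median of 0.12. Over all genes 6.81% were called higher and 5.94% lower. Without unexposed replicates 4 and 5 nipi-3 (0.50, adjusted p = 0.00379) and cebp-1 (1.04, adjusted p = 0.00494) were still called and rack-1 was not (adjusted p = 0.0652). NIPI-3 is a pseudokinase needed for nlp-29 induction after infection, and CEBP-1 is a transcription factor that NIPI-3 is known to restrain. cebp-1 had 9.84 ± 3.1 CPM in exposed wild type, against 5.26 ± 0.97 CPM in unexposed wild type (SD, n = 5 each). At 6 h none of the 15 was called between exposed and unexposed worms (median 0.10), where 3.94% of all genes were.

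Between times in exposed worms, 4 of the 15 were lower at 6 h and none higher, beside 13.7% of all genes called lower and 11.3% higher. They were led by cebp-1 (−0.78, adjusted p = 0.0035) and tir-1 (−0.59, adjusted p = 0.0052). In mutants at 0 mM 12 of the 15 were higher than in wild type and 1 was lower (median 0.43), or 10 and 1 without wild-type replicates 4 and 5, beside 23.2% of all genes higher and 22.3% lower. The 12 were led by cebp-1 (1.38, edgeR adjusted p = 4e-07), nipi-3 (0.69, adjusted p = 6.8e-07) and egl-8 (0.34, adjusted p = 3e-05), with rack-1 lower (−0.31, adjusted p = 6.1e-06). At 400 mM 11 were higher and 1 lower, beside 26.8% and 25.6% of all genes. The interaction of ethanol with genotype, called for 4.15% of all genes, was called for cebp-1 (−0.98, adjusted p = 0.02) and nipi-3 (−0.49, adjusted p = 0.028), also without wild-type replicates 4 and 5 (−1.10 and −0.50, adjusted p = 0.0267 and 0.0474). Their levels in exposed and unexposed mutants were 13 ± 2.7 against 13.7 ± 2.2 CPM and 52 ± 4.1 against 52.8 ± 7.8 CPM (SD, n = 5 each). In the mutants themselves ethanol was followed by 2 genes higher, among them egl-8 (0.29), and 1 lower, pmk-1 (−0.27). Over all genes 24.3% were called there in either direction.

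Of 9 TGF-beta pathway genes, none was called after ethanol in wild type at either time (1 was higher immediately after exposure without unexposed replicates 4 and 5). In mutants 4 were higher than in wild type at 0 mM (median 0.28) and 6 at 400 mM (median 0.34), with none lower, beside 23.2% and 26.8% of all genes called higher. The ligand gene dbl-1 had 4.39 ± 1.4 CPM in mutants at 0 mM, against 3.62 ± 0.65 CPM in wild type (SD, n = 5 each), and was not among them. Ethanol in mutants was followed by higher sma-10 and sma-4 (0.58 and 0.46) and lower daf-4 (−0.21), where 24.3% of all genes were called. sma-9, a transcription factor of this pathway, was higher at both doses (0.33 and 0.34).

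Of 12 further nlp and cnc peptide genes, 8 were tested. cnc-5 and cnc-9 had no count, nlp-32 had 8 counts in all and cnc-11 had 23. Immediately after exposure, cnc-3 and nlp-25 were higher in wild type and none was lower, where 6.81% of all genes were higher. cnc-3, which lies between cnc-4 and cnc-2, had 6.96, 9.58, 7.01, 8.70 and 6.29 CPM in exposed worms, against 3.64, 3.02, 2.28, 5.54 and 3.78 CPM in unexposed worms (log2 fold change 1.07 ± 0.19, SE; edgeR adjusted p = 0.0005). The groups did not overlap, although unexposed replicate 4 was again the highest of its group. Without unexposed replicates 4 and 5 it was 1.38 (adjusted p = 0.000123). nlp-25 had 1.72, 0.72, 1.63, 1.49 and 1.37 CPM in exposed worms, against 0, 0.07, 0.16, 0.69 and 0.56 CPM in unexposed worms (2.15, edgeR adjusted p = 0.0084). The 3 lowest unexposed libraries held too few counts of nlp-25 for a fold change of their own. At 6 h nlp-25 had 0.60, 0.06, 0.52, 0.57 and 0.92 CPM in exposed worms, against 0.06, 0.18, 0.07, 0.06 and 0.13 CPM in unexposed worms with at most 3 counts each. This was not called (adjusted p = 0.0531), and neither was its interaction with time (0.16, adjusted p = 0.944). Both were lower at 6 h than immediately in exposed worms (−1.39 and −1.33, adjusted p = 1.5e-05 and 0.044).

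In mutants, exposure was followed by higher nlp-25 (2.53, edgeR adjusted p = 0.00014) and lower nlp-24 (−1.03, adjusted p = 0.00023), where 24.3% of all genes were called. nlp-24 had 12.37, 15.21, 17.24, 13.53 and 15.17 CPM in exposed mutants, against 35.29, 33.60, 21.80, 23.09 and 35.67 CPM in unexposed mutants. In wild type nlp-24 did not pass the test, with 25.62 to 52.70 CPM in exposed worms and 27.31 to 49.68 CPM in unexposed worms. Between genotypes at 400 mM, cnc-10 was higher in mutants (1.41), and nlp-24 and cnc-3 were lower (−1.29 and −0.52), beside 26.8% and 25.6% of all genes. At 0 mM cnc-10 was higher in mutants (0.69) and none was lower, beside 23.2% and 22.3% of all genes. Without wild-type replicates 4 and 5 cnc-10 was not called (adjusted p = 0.0726), while cnc-3 was called higher (0.55, adjusted p = 0.0343). nlp-25 was called higher too (adjusted p = 0.026), but the remaining wild-type libraries held too few counts of it for a fold change. Of 36 fip (fungus-induced protein) and fipr (fip-related) genes, 14 were tested in wild type. None of them was called after ethanol at either time (1 was higher immediately after exposure without unexposed replicates 4 and 5). In the fit with mutants 18 were tested. In mutants 9 were higher than in wild type and 1 lower at 0 mM (median 0.95), or 7 and 1 without wild-type replicates 4 and 5, beside 23.2% of all genes higher and 22.3% lower. They were led by fip-2 (1.10), fipr-21 (0.72) and fipr-3 (2.44). At 400 mM 14 were higher and 2 lower (median 1.40), beside 26.8% and 25.6% of all genes, led by fip-2 (1.25), fipr-2 (1.61) and fipr-13, which was lower (−0.68). Ethanol in mutants was followed by higher fipr-24 (2.90) and lower fipr-21 (−0.52), again beside 24.3% of all genes called.

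**Figure D5:**
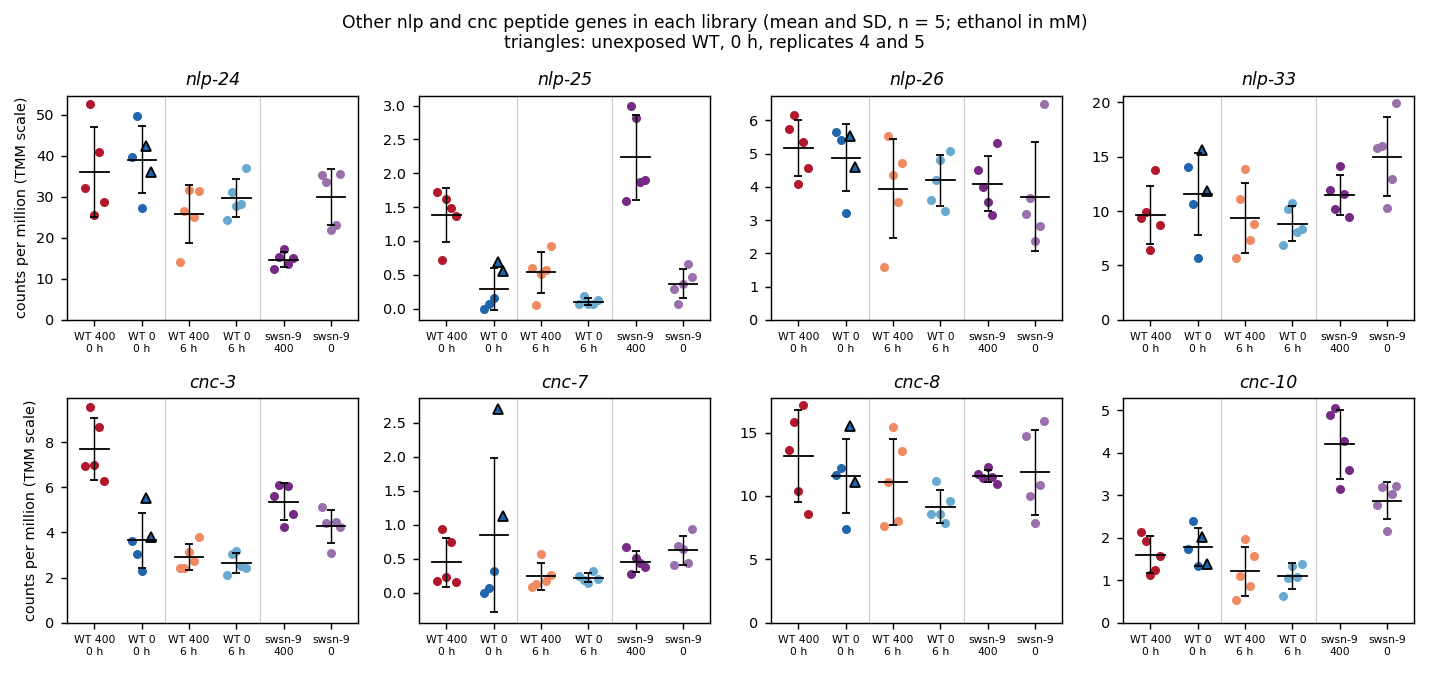
Level of 8 further nlp and cnc peptide genes in each library (y axis, CPM on the TMM scale; points are libraries, bars the mean and SD of 5; triangles as in the plot of the main genes). nlp-25 and cnc-3 are higher in exposed than in unexposed wild type harvested immediately, and nlp-24 lies between 12.37 and 17.24 CPM in exposed mutants.

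The genes whose levels followed nlp-29 most closely over the 30 libraries, among 11346 genes with a mean of at least 1 CPM and outside the 10 peptide genes, were swt-1 (Pearson's r 0.934), ZK6.8 (0.933), ptr-22 (0.932), nhr-130 (0.930) and pnp-1 (0.927). swt-1 encodes a sugar transporter of the SWEET family, ptr-22 a patched-related protein, nhr-130 a nuclear hormone receptor and pnp-1 a purine nucleoside phosphorylase. pnp-1 averaged 65.6 CPM in exposed and 33.6 CPM in unexposed wild type harvested immediately, 25.6 and 25.1 CPM at 6 h, and 115 and 58.2 CPM in exposed and unexposed mutants. ptr-22 averaged 5.34 and 0.858 CPM, 0.195 and 0.373 CPM, and 13.6 and 2.48 CPM in the same order.

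For cnc-2 the closest genes outside the list were Y41G9A.10 (0.893), ttr-32 (0.863), Y41G9A.5 (0.858), K10D6.4 (0.854) and F27D4.6 (0.852). ttr-32 encodes a transthyretin-related protein and averaged 9.67 and 10.6 CPM in exposed and unexposed mutants, against 4.02 and 4.04 CPM in wild type harvested immediately. Among the peptide genes themselves, cnc-2 correlated with cnc-4 at 0.923 and with nlp-31 at 0.873. nlp-29 correlated with nlp-31 at 0.887, with nlp-28 at 0.859 and with nlp-27 at 0.200. The libraries share groups and depth, so these values describe the data set and carry no test.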

How the data were processed

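The authors selected polyadenylated RNA from whole worms, sequenced paired ends and aligned the reads with STAR 2.6.0a, keeping reads with 1 alignment only. They deposited the raw count per gene that STAR gave for all 30 libraries, without normalization. The paper writes WBcel325 for the assembly, while the identifiers are those of WBcel235. The annotation release and the strand column of the counts are not given in the sources used here. Positions and exon lengths came from Ensembl release 115.

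The 10 genes and all gene lists were chosen with earlier results of these data known, so their directions are not independent evidence. In R 4.3.3, edgeR 4.0.16 scaled the counts by TMM and applied its quasi-likelihood F test to genes whose mean count reached 1. Adjustment was by Benjamini-Hochberg over all genes, and an adjusted p under 0.05 was called whatever the fold change. Comparisons within wild type used 20 libraries (16210 genes) and those with mutants 30 libraries (16934 genes), after the study's methods. Standard errors came from the F statistic, and p-values measure the spread between replicate populations. The fits were tested on simulated data. The 60 library pairs within groups held no copies. Named genes were the 10 members, up to 4 called genes per list with the smallest p, further ones chosen after their values were seen (dbl-1, str-83 and nlp-24 in wild type), and the 5 closest by correlation of log2 CPM (prior count 2) to nlp-29 and cnc-2. dpy-7 and elt-3 are each in 2 lists. Alternatives were DESeq2 1.42.0 and its size factors, no or a stricter filter (mean count of 10), other sets of libraries, a replicate block and each library left out. Promoter and protein sequences were not analysed here.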

Additional observations from a re-analysis of the deposited data

Results flagged for a closer look

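In 50 groups of 5 libraries, each of 1 gene, the library farthest from the others was compared with Dixon's critical value of 0.71, which chance exceeds in about 1 of 20 groups, and 5 groups exceeded it. nlp-34 in unexposed wild type at 6 h had a highest library of 0.988 CPM with the next at 0.312 CPM (ratio of gap to range 0.91). nlp-31 in exposed wild type at 6 h had a lowest library of 1.21 CPM with the next at 2.67 CPM (0.788). nlp-31 in unexposed mutants had a highest library of 10.1 CPM with the next at 8.11 CPM (0.927). nlp-30 in exposed wild type at 6 h had a highest library of 0.569 CPM with the next at 0.208 CPM (0.795). nlp-28 in exposed mutants had a highest library of 27.7 CPM with the next at 22.7 CPM (0.734). The high pair of unexposed wild-type libraries is not found this way, since each is near the other.

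The effect of ethanol differed between groups for a pair of genes in edgeR's tests of interaction. For nlp-28 in wild type it was lower at 6 h than immediately after exposure by a log2 difference of −1.21, and for nlp-34 it was higher in mutants than in wild type by 4.25. Without unexposed wild-type replicates 4 and 5 these differences were −1.70 (adjusted p = 0.00105) and 0.96 (adjusted p = 0.794).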

How the results depend on the processing

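The calls of the peptide genes turned most on unexposed wild-type replicates 4 and 5. With both left out, the sign turned for cnc-4 (1.94, edgeR adjusted p = 0.00301) and cnc-2 (1.39) after ethanol in wild type and for nlp-30 between genotypes at 0 mM (1.22, adjusted p = 0.0322). It also turned between times at 0 mM for cnc-2 (0.23, adjusted p = 0.856), cnc-4 (1.26), nlp-34 (1.00), nlp-29 (0.55), nlp-31 (0.35) and nlp-30 (0.24). The interactions turned to −0.58 for cnc-2 with time, and to −1.59 for cnc-4, −1.21 for cnc-2 and −1.17 for nlp-30 with genotype. The number called then became 8 between genotypes at 0 mM (main 4) and 4 for the interaction with time (main 1). The count between times at 0 mM was 2 with no filter on low counts and 2 with all 30 libraries (main 1). That for the interaction with time was 2 with DESeq2, 2 with no filter and 2 with all 30 libraries, nlp-27 being added each time. With 1 library left out, the number called ran from 2 to 4 after ethanol in wild type, 0 to 0 at 6 h, 2 to 2 in mutants, 2 to 6 between genotypes at 0 mM and 4 to 6 at 400 mM. It ran from 0 to 3 between times at 0 mM, 3 to 4 at 400 mM, 1 to 2 for the interaction with time and 0 to 1 for that with genotype. Of 1390 values of a gene in a comparison under an alternative, 1224 kept their direction and side of the threshold, 54 lost a call, 41 gained it and 71 changed sign, 55 of these with 1 library left out. No group mean moved by more than 1 SD with DESeq2 size factors. The cause of these changes was not tested.

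With 1 library left out, 13 results changed sign. After ethanol in wild type the values ran from −0.63 to 0.20 for cnc-4 and −0.075 to 0.53 for nlp-31. At 6 h they ran from −0.92 to 0.37 for nlp-34, −0.33 to 0.0016 for nlp-31, −0.10 to 0.22 for nlp-29 and −0.094 to 0.16 for nlp-28. After ethanol in mutants nlp-31 had −0.086 to 0.087. Between genotypes nlp-34 had −0.11 to 0.77 and nlp-30 −0.33 to 0.31 at 0 mM, and nlp-30 −0.10 to 0.17 at 400 mM. The interaction of cnc-4 with time was −0.575 to 0.26, and with genotype that of nlp-31 was −0.47 to 0.14 and that of nlp-30 −0.29 to 0.36.

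Replicate numbers were not taken to pair libraries, since the labels do not say that a number marks a shared day. Exposed and control plates ran side by side per the study's methods, so the main tests leave out any pairing by day. After subtraction of group means, libraries with the same number correlated over 0.1 in 8 of 15 pairs (−0.118 to 0.329). Their own number was the best match, out of 5 libraries, for 9 of 15. This does not settle whether a number marks a day. With a replicate block, the interaction with time called 3 genes, adding nlp-29 (−1.53, adjusted p = 0.0366) and nlp-27 (0.77, adjusted p = 0.000825). The block also called nlp-29 after ethanol in mutants (0.63, adjusted p = 0.0453), cnc-4 between genotypes at 0 mM (1.07, adjusted p = 0.0364) and nlp-31 at 400 mM (0.75, adjusted p = 0.0377), and changed no other call. Under it the sign of 3 uncalled values turned, cnc-4 after ethanol in wild type (0.0076), nlp-28 at 6 h (−0.0033) and the interaction of nlp-30 with genotype (−0.034).

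Over all genes, 639 were called at 6 h (451 higher, 188 lower), 702 with DESeq2 size factors (424 higher, 278 lower), 1111 with DESeq2, 1583 with the block and 339 without unexposed 6 h replicate 4. Between times at 0 mM 3099 were called, 1229 without unexposed replicates 4 and 5 and 1950 without replicate 4 alone. The interaction with time had 856 and 1576 with the block, and that with genotype 703, 1170 with the block and 1372 without unexposed mutant replicate 5. Counting precision limits nlp-34, nlp-30, cnc-6 and cnc-1 most.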
